A study of Homo sapiens with 2 samples.

Results

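The semaphorin, plexin and neuropilin genes were taken by symbol from the RefSeq gene table of the human build GRCh38.p14. Every protein-coding gene whose symbol starts with SEMA3 to SEMA7 or with PLXN was included, together with NRP1 and NRP2. This gave 31 genes out of 20037 protein-coding genes on chromosomes 1 to 22, X and Y, namely 20 semaphorins, 9 plexins and 2 neuropilins. For each of them the peaks of RUNX1, a DNA-binding transcription factor that works with its partner CBFB, were counted in 1 ChIPseq library called against 1 library of input DNA. Both libraries came from MCF10A, a human breast epithelial cell line that does not form tumours in its unmodified form. The paper reports that MCF10A cells formed tumours in mice once RUNX1 was deleted. Both libraries carried the same alleles and treatment. The cells' own RUNX1 was deleted, and a RUNX1 gene inducible by doxycycline had been brought in with lentiviruses. Doxycycline was given at 1 µg/ml for 24 hours. RUNX1 was therefore measured at an imposed level in a single engineered line, and a peak list holds no expression value against which the deletion or the induction could be checked. With 1 library of each kind there is no replicate and no test between samples, and the intervals given cover counting error in the ChIP library only.

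Semaphorins are secreted or membrane-bound cues that share a sema domain, and plexins are their main receptors. Plexins carry a cytoplasmic GTPase-activating domain through which they loosen cell adhesion and reshape the cytoskeleton. Most secreted class 3 semaphorins do not bind their plexin alone and need a neuropilin as a co-receptor, whereas semaphorins of classes 4 to 7 are mostly held in the membrane and bind plexins directly. The system is best known from the guidance of growing axons, and it also acts in blood vessels, immune cells and epithelia.

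Each peak was counted for a gene if the summit, its position of greatest tag overlap, was inside the gene or no more than 5 kb from either end. By this rule 15 of the 31 genes had a peak, with 39 peaks in all. Of all protein-coding genes 24.8% had one. Peaks were most numerous at the axon guidance cue SEMA5A, with 6, and at NRP2, PLXNA2 and PLXNA4, with 4 each. NRP1, SEMA4D and SEMA5B had 3 each, PLXNA1, PLXNB2, SEMA3B and SEMA3C 2 each, and PLXNC1, SEMA3E, SEMA6A and SEMA7A 1 each. A further 8 genes had a summit only between 5 and 50 kb away, and 8 had none within 50 kb.

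The number of genes with a peak has to be read against gene length, since a longer gene offers more room for a summit. The 31 genes had a median length of 54.3 kb and ranged from 11.1 kb (SEMA4C) to 590 kb (SEMA6D), while the median of all protein-coding genes was 24.1 kb. Of the 10 members under 30 kb, 2 had a peak, against 14.3% of all protein-coding genes of that length. Of the 7 members from 30 to 100 kb, 2 had a peak, against 28.9%. All 8 members from 100 to 250 kb had a peak (NRP1, NRP2, PLXNA2, PLXNC1, SEMA3C, SEMA4D, SEMA5B and SEMA6A), against 46.5%. This count depends on the band edge, since SEMA3D, at 255 kb just beyond it, had none. It also includes weak peaks: those of PLXNC1, SEMA5B and SEMA6A all had a fold enrichment over the local background below 5. Of the 6 members of 250 kb or longer, 3 had a peak, against 68.0%. The share among members was thus above that of all genes from 100 to 250 kb and below it among the longest genes, and no test of these differences was made. When each member was set beside the 200 protein-coding genes nearest to it in length, the shares of those neighbours with a peak summed to 11.3 genes, compared with the 15 observed.

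**Figure D1:**
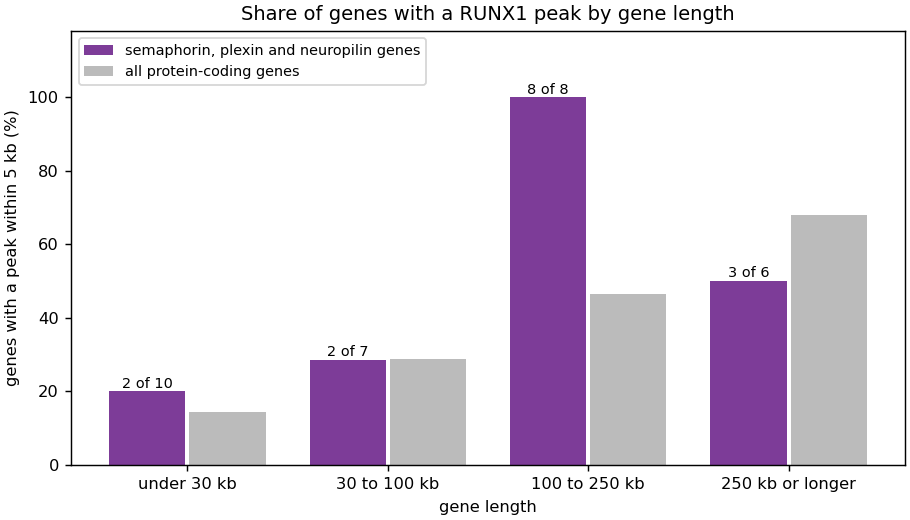
Share of genes with a RUNX1 summit in the gene or within 5 kb (%) in 4 bands of gene length, for the semaphorin, plexin and neuropilin genes (purple, with the number of genes) and for all protein-coding genes (grey). All 8 members from 100 to 250 kb had a peak, whereas 3 of the 6 longer ones did. SEMA3D, without a peak, is just beyond the 250 kb edge at 255 kb.

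**Figure D2:**
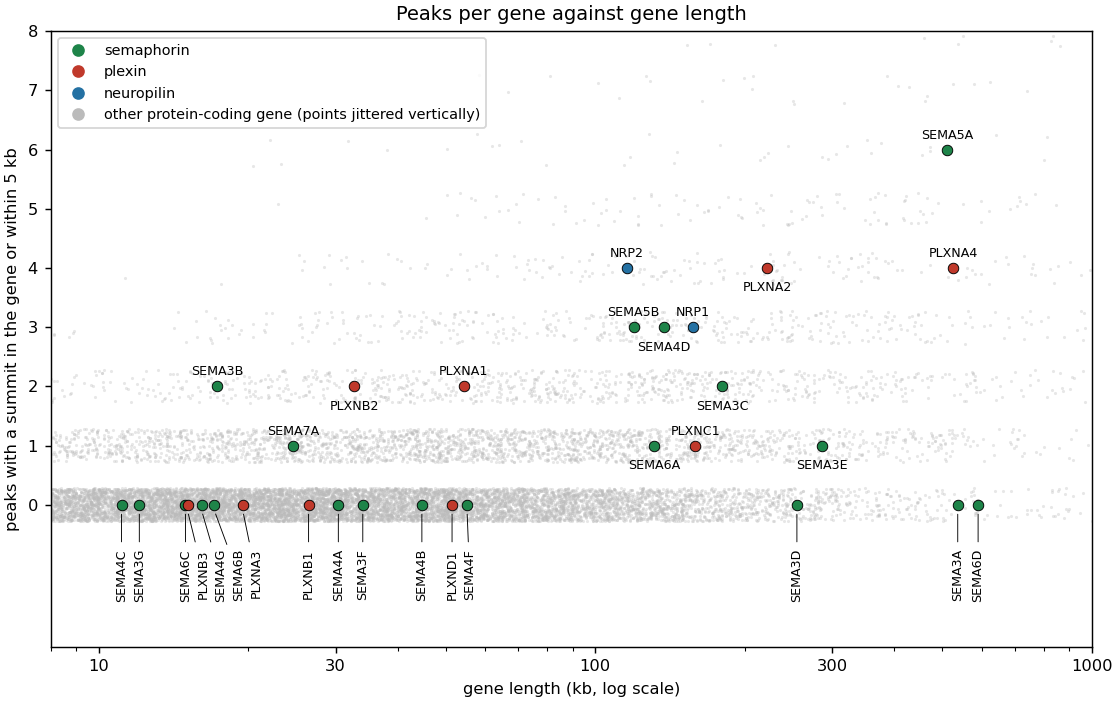
Number of peaks per gene against gene length in kb on a log scale, with 1 labelled point for each of the 31 members and grey points, jittered vertically, for other protein-coding genes. Genes shorter or longer than the frame or with more than 8 peaks are not drawn, and SEMA5A is the highest member with 6 peaks while SEMA3A and SEMA6D lie at 0 despite their length.

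Gene bodies of the 31 members add up to 4.40 Mb and held 35 summits, or 7.95 per Mb, and the other 4 of the 39 summits lay outside within 5 kb. Over all protein-coding genes the density was 5.10 summits per Mb. It differed widely within the family. The neuropilins had 18.3 summits per Mb (5 summits), the class 5 semaphorins 14.3 (9), the plexins 11.8 (13) and the class 4 semaphorins 10.2 (3, all in SEMA4D). The class 3 semaphorins had 3.03 (4 summits) and the class 6 semaphorins 1.33 (1 summit), and SEMA7A had no summit inside the gene. These rates rest on few genes and few summits, and their differences were not tested. By length, members from 100 to 250 kb had 15.5 per Mb against 5.35 for all protein-coding genes of that length, and members of 250 kb or longer 4.07 against 3.56. Among the longest genes the density of the members was thus slightly above that of all genes, although the share with a peak was below it.

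In height the 39 peaks had the same median as the list they came from. The pileup, which counts the extended ChIP tags that cover the summit, had a median of 18 tags (quartiles 15 and 20, range 11 to 39), and that of all 13591 peaks was 18 (quartiles 15 and 23). The median fold enrichment over the local background was 4.79 against 5.06 in the whole list. Of the 39 peaks 15 (38.5%) had a fold enrichment of at least 5, as had 50.6% of all peaks. Keeping only such peaks left 9 members with a peak, or 29.0%, against 15.4% of all protein-coding genes. These shares take no account of gene length. PLXNB2, PLXNC1, SEMA3B, SEMA3E, SEMA5B and SEMA6A were lost at this limit. The median width was 150 bp for the 39 peaks and 153 bp for all.

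The input level given here is the local background that the authors' peak caller set against each pileup, recovered from the fold enrichment. At its lowest it equals the genome-wide background of 2.20 tags, and above this it mostly moves in steps of single input tags, each counting 0.919 after scaling. It was at the genome background in 14 of the 39 peaks and above 1.5 times that background in 8, or 20.5%, compared with 22.1% of all peaks.

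**Figure D3:**
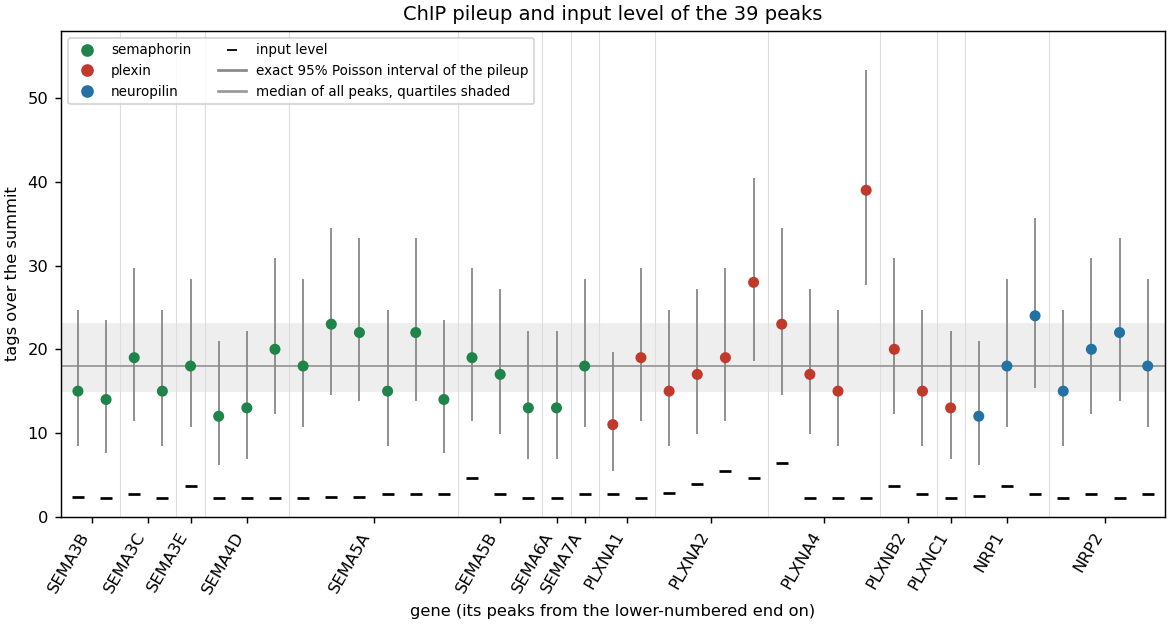
ChIP pileup in tags over the summit (dots, with exact 95% Poisson intervals) and input level (black dashes) of the 39 peaks, ordered by gene within semaphorins, plexins and neuropilins. The grey line and band are the median of 18 tags and the quartiles of all peaks, and the peak of 39 tags in PLXNA4 has an interval whose lower bound, 27.7 tags, lies above that band.

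Before the genes are taken in turn, the bases around a listed transcription start are shown where a peak touched the promoter window. RefSeq promoter windows of GRCh38.p14, each from 250 bases before a start to 50 bases after it, were found for 27 of the 31 genes, 48 windows in all, and NRP1, SEMA3A, SEMA6A and SEMA6B had no entry. A peak touched 1 of the 48 windows, compared with 1.87% of 22199 windows of protein-coding genes. It was the window at a start of SEMA3C, a secreted cue that acts through neuropilins and class A plexins, at chr7:80919002-80919301 on the minus strand. The gene has a second listed start 3.34 kb farther upstream, whose window, chr7:80922340-80922639, no peak touched. Both windows are printed from upstream to downstream on the gene's strand so that they can be compared. In capitals are the 12 bases covered by the peak, at the upstream end of the window. The first label refers to the window, and the peak did not reach the start itself.
SEMA3C, start touched by a peak: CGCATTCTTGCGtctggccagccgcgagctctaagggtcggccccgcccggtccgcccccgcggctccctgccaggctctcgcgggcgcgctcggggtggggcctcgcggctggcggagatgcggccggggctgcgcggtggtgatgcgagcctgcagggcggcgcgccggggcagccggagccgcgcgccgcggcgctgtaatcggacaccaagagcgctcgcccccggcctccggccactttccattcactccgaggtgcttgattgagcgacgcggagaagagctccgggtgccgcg
SEMA3C, upstream start: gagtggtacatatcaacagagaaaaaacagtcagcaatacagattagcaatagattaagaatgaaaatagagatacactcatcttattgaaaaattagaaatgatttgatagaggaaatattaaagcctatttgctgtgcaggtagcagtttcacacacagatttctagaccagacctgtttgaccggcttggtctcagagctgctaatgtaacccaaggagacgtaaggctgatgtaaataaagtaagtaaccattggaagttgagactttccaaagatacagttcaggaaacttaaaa
The touched window held 75.7% G and C with 46 CG pairs, the other 36.0% with 2. Neither of the RUNX core motifs TGTGGT and TGCGGT, searched on both strands, occurs in either window. Overlapping windows were counted separately, so the same motif can count more than once, as at SEMA4A. Over the 48 windows of the family 18.8% held at least 1 of these motifs, and over all windows of protein-coding genes 19.0%. Among the 415 windows of any protein-coding gene that a peak touched the share was 56.1%. Most of the SEMA3C peak lies outside the window printed, and the bases under its summit, as under the other summits, were not analysed here.

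Among the ligands, 8 of 20 semaphorin genes had a peak, with 19 peaks of 12 to 23 tags, where genes of like length summed to 7.25. SEMA5A, a transmembrane semaphorin with thrombospondin repeats, spans 511 kb of chromosome 5 (9035033 to 9546075, minus strand) and had 6 peaks. From the start of the gene on, the ChIP pileups were 14, 22, 15, 22, 23 and 18 tags, over input levels of 2.76, 2.76, 2.76, 2.31, 2.31 and 2.20 tags. The summits lay 66.4, 94.5, 144, 280.1, 280.6 and 377 kb inside the gene, so none was near the listed start. The pair in the middle, chr5:9265370-9265525 and chr5:9265928-9266037, had its summits only 511 bp apart and included the best peak of the gene, at 23 tags (14.6 to 34.5), a fold enrichment of 7.25 and a −log10 q of 11.8. Of the 200 genes nearest in length, 15 had as many peaks. The related SEMA5B, at 120 kb on chromosome 3, had 3 peaks, of 13, 17 and 19 tags over input levels of 2.20, 2.76 and 4.60, and 24 of the 200 genes nearest in length had at least as many. The tallest of them had the highest input and, at 3.57, the lowest fold enrichment of the 3. The middle peak of SEMA5B, chr3:122995303-122995513, lay 2.18 kb upstream of an internal start of the gene.

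Of the 7 class 3 semaphorins 3 had a peak, SEMA3B, SEMA3C and SEMA3E, with 5 peaks of 14 to 19 tags, and genes of like length summed to 2.92. SEMA3B, a secreted semaphorin studied as a tumour suppressor, is only 17.3 kb long and had 2 peaks, which 8 of its 200 neighbours in length matched. The peak inside the gene, chr3:50265343-50265440, had 14 tags (7.65 to 23.5) over the genome background and stood 2.24 kb upstream of the nearest listed start. The other, chr3:50255410-50255498, had 15 tags over an input level of 2.31 and lay 4.75 kb before the gene, where its summit fell inside the neighbouring GNAI2, a G protein subunit. It was the summit closest to the 5 kb limit on the near side. On the far side the closest was that of SEMA4C, at 5.86 kb with 17 tags, inside FAM178B.

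SEMA3C had 2 peaks. The first, whose flank is printed above, was chr7:80919290-80919363 with its summit 291 bp upstream of the start whose window it touches. It had 15 tags (8.40 to 24.7) over an input level of 2.24, a fold enrichment of 4.93, and a width of 74 bp, the minimum in the list. The second, chr7:80895164-80895274, was 23.8 kb downstream of that start and had 19 tags over 2.76. SEMA3E, which signals through PLXND1 without a neuropilin, had 1 peak of 18 tags over an input level of 3.68 (fold enrichment 4.06) that stood 66.5 kb downstream of the nearest listed start in a gene of 286 kb.

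SEMA3A, SEMA3C, SEMA3D and SEMA3E lie in a block on the long arm of chromosome 7, between 80742538 and 85250243. The block also holds 3 other protein-coding genes. Together their gene bodies cover 1.26 Mb and held 3 summits, and 2 of the 4 had a peak where genes of like length summed to 2.39. SEMA3A, the founding collapsing factor of growth cones, is 537 kb long and had no summit within 50 kb, although 74.5% of its 200 neighbours in length had one in the gene or within 5 kb. Its nearest summit was 381 kb away. SEMA3D, at 255 kb, had its nearest summit 1421 kb away. Both genes lie whole in a stretch of 3.86 Mb without a summit that runs from the SEMA3E peak to 87435764. The list has 40 stretches at least as long, with no allowance for centromeres or assembly gaps. In the block of 4.51 Mb as a whole there were 8 summits, or 1.77 per Mb. The 5.10 per Mb given above is for gene bodies, and no density over all sequence was computed for comparison.

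Of the 6 class 4 semaphorins only SEMA4D had a peak, where genes of like length summed to 1.4. SEMA4D, a transmembrane ligand of PLXNB1, had 3 peaks of 20, 13 and 12 tags, each over the genome background. The tallest, chr9:89497226-89497385, had 20 tags (12.2 to 30.9), a fold enrichment of 6.56 and a −log10 q of 9.38. Its summit lay 846 bp downstream of the gene's first base and 1.61 kb upstream of the listed start. The other 2 lay 60.7 and 110 kb inside. SEMA6A, a transmembrane semaphorin that binds class A plexins, had 1 peak of 13 tags over the genome background, and the other 3 class 6 genes had none. Of these, SEMA6D is the longest gene of the family at 590 kb and had its nearest summit 112 kb away, while 77% of its 200 neighbours in length had a peak. SEMA7A, held in the membrane by a lipid anchor, had 1 peak of 18 tags over 2.76, located 1.78 kb downstream of the gene.

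Among the receptors, 5 of 9 plexin genes had a peak, with 13 peaks of 11 to 39 tags, where genes of like length summed to 3.05. PLXNA4, a class A plexin that serves class 3 and class 6 semaphorins, held the tallest peak at any of the 31 genes. At chr7:132609269-132609576 it had 39 tags (27.7 to 53.3) over the genome background, a fold enrichment of 12.5 and a −log10 q of 29.8. Only 2.98% of all peaks were taller. Its summit lay 39.3 kb inside the 525 kb gene and 32.9 kb upstream of the listed start. The other 3 had pileups of 15, 17 and 23 tags over input levels of 2.20, 2.20 and 6.43, so the second tallest stood where the input was highest, at 7 input tags, and had a fold enrichment of 3.23. At PLXNA4, 40 of the 200 neighbours in length had at least 4 peaks.

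PLXNA2, a class A plexin on the long arm of chromosome 1, had 4 peaks in 222 kb, which 20 of its 200 neighbours matched. The pileups were 28, 19, 17 and 15 tags from the gene start on, over input levels of 4.60, 5.51, 3.88 and 2.79 tags. All 4 input levels exceeded the genome background, at 1.27 to 2.5 times its value, and the fold enrichments were 3.07 to 5.18. What part the raised input has in these heights was not tested. The tallest, chr1:208210287-208210444, and its neighbour 854 bp away both lay 34 to 35 kb inside the gene and inside the non-coding gene LOC105372884. A pair of stronger peaks stood upstream of the gene, inside the non-coding LOC105372889. One of 30 tags over 4.60 was 10.6 kb before the start, and one of 34 tags (23.5 to 47.5) over 2.75, with a fold enrichment of 9.32, was 29.2 kb before it.

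PLXNA1 is 54.3 kb long and had 2 peaks 1415 bp apart, 19.2 and 20.6 kb inside the gene. The taller, chr3:127003627-127003969, had 19 tags (11.4 to 29.7) over the genome background, and the other 11 tags over 2.76. At 11 tags and a −log10 q of 1.41 the latter was the weakest of the 39, and it is the only one lost at a q limit of 0.01. Downstream of the gene a group of 3 taller peaks, of 21, 22 and 28 tags, lay 28.3, 36.7 and 37.6 kb beyond its end, in no other annotated gene. PLXNB2, a receptor of class 4 semaphorins that is widespread in epithelia, is only 32.7 kb long and had 2 peaks, of 15 tags over 2.76 and 20 tags over 3.68. PLXNC1, the receptor of SEMA7A, had 1 peak of 13 tags over the genome background, 62.7 kb inside the gene. PLXNA3, PLXNB1, PLXNB3 and PLXND1 had none within 5 kb.

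Both neuropilins, co-receptors of class 3 semaphorins and of VEGF, had peaks, 7 in all. NRP2 had 4 in the gene or within 5 kb, and 4 of the 200 genes nearest to its 116 kb had as many. From upstream to downstream the pileups were 15, 20, 22 and 18 tags, over input levels of 2.20, 2.76, 2.20 and 2.76. The first lay 3.56 kb upstream of the start and the second 18.3 kb inside the gene. The other 2, chr2:205753030-205753239 and chr2:205754720-205755312, had their summits 2041 bp apart, 70.6 and 72.6 kb inside. The latter was 593 bp wide, the widest of the 39. NRP1 had 3 peaks. The tallest, chr10:33335971-33336191, had 24 tags (15.4 to 35.7) over 2.76, a fold enrichment of 6.65 and a −log10 q of 11.2, and lay outside the gene, 1.37 kb from its higher-numbered end. Inside NRP1 were peaks of 12 tags over 2.52 and 18 tags over 3.68. For NRP1, 23 of 200 genes of like length had as many peaks.

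**Figure D4:**
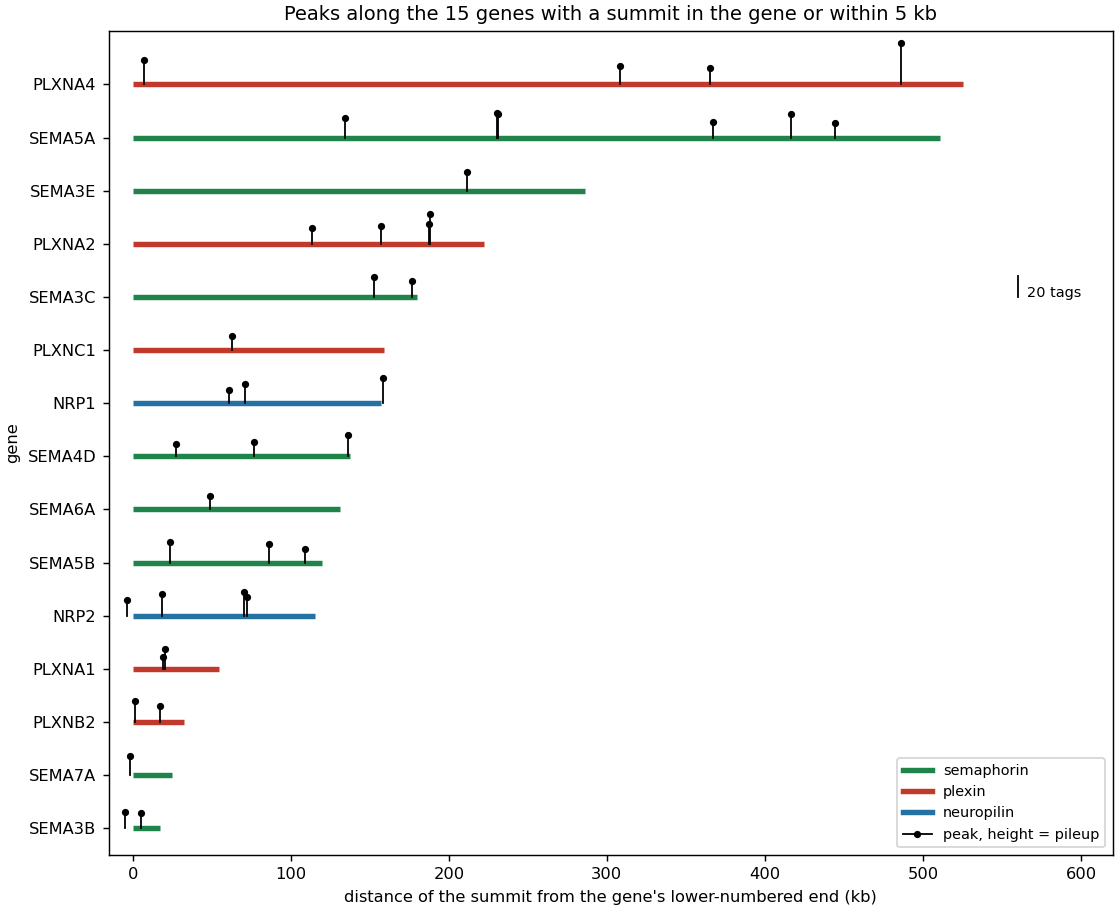
The 15 genes with a summit in the gene or within 5 kb, drawn to scale as bars from the lower-numbered end (kb), with each peak as a vertical line whose height is its pileup in tags (scale bar 20 tags). Summits are spread along the genes, and PLXNA4 carries the tallest, at 39 tags.

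Across the family the summits were mostly far from the listed transcription starts. Of the 35 peaks at genes with a listed start, 1 lay within 1 kb of one, 5 from 1 to 5 kb, 4 from 5 to 20 kb and 25, or 71.4%, farther than 20 kb. The median distance was 51.4 kb. The tallest SEMA4D peak counts here at 1.61 kb, although its summit lay 846 bp from the gene's first base. NRP1 and SEMA6A have no listed start, so their peaks are left out, including the NRP1 peak 1.37 kb outside the gene. For all 6865 pairs of a peak and a protein-coding gene with a listed start, counted by the same rule, 51.1% were farther than 20 kb, the median was 21 kb and 12.1% lay within 1 kb. Long genes place more of their summits far from a start, and no test was made. Close pairs of summits, less than 2.5 kb apart, were found in SEMA5A, PLXNA1, PLXNA2 and NRP2 and took in 8 of the 39 peaks (20.5%). Of all peaks 19.0% had another summit that near.

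Read along known ligand and receptor pairs, peaks fell on both sides of some and on 1 side of others. SEMA7A and its receptor PLXNC1 had 1 peak each. SEMA6A had 1 and its receptors PLXNA2 and PLXNA4 4 each. SEMA4D had 3 while PLXNB1 had none, but PLXNB2, a receptor of class 4 semaphorins, had 2. SEMA3E had 1 while PLXND1 had its only summit 21.7 kb upstream of the gene. A single peak was common at most of these lengths. Among the 200 genes nearest in length, 102 had a peak for PLXNC1, 111 for SEMA3E, 86 for SEMA6A and 37 for SEMA7A. SEMA3A had none, but NRP1 and the class A plexins PLXNA1, PLXNA2 and PLXNA4, which together form its receptors, had 2 to 4 each. The other class A plexin, PLXNA3, had no summit within 50 kb.

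With peaks up to 50 kb away, 23 of the 31 genes had one, against 52.1% of all protein-coding genes, and the neighbours in length summed to 17.9. This added 26 peaks with a median of 19 tags, of which 11 had their summit inside another protein-coding gene. Of the 8 genes reached only at this distance, SEMA4A had the tallest peak, chr1:156127182-156127487, with 42 tags (30.3 to 56.8) over 2.93 and a fold enrichment of 10.9. Its summit was 20 kb upstream of SEMA4A and inside LMNA, the nuclear lamin gene, so its nearest gene by position is not the semaphorin. At SEMA6B the taller of 2 peaks had 26 tags (17.0 to 38.1) over the genome background, at chr19:4521514-4521919, 20.9 kb from the gene and in no other annotated gene. SEMA6C had 25 tags over an input level of 7.35, the highest at any peak within 50 kb of the 31 genes, inside SCNM1 at 19.9 kb. The tallest peaks at the others were 20 tags at SEMA3F (12.9 kb), 19 at SEMA4C (26.8 kb, over 6.43), 16 at PLXND1 (21.7 kb), 14 at SEMA3G (13.8 kb) and 14 at SEMA4B (45.2 kb). No summit lay within 50 kb of PLXNA3, PLXNB1, PLXNB3, SEMA3A, SEMA3D, SEMA4F, SEMA4G or SEMA6D.

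The partners of the pathway were followed in a separate list of 37 genes for co-receptors, ligand partners and effectors inside the cell. Of these 14 had a peak in the gene or within 5 kb, with 31 peaks in all, and the genes nearest to them in length summed to 12.9. The tallest was at ARHGAP35, a GTPase-activating protein, with 43 tags (31.1 to 57.9) and a fold enrichment of 9.41. Next came MICAL3, of the oxidoreductases that take actin filaments apart below class A plexins, with 39 tags (27.7 to 53.3) and 10.6-fold, and ARHGEF12, an exchange factor bound by class B plexins, with 38 tags (26.9 to 52.2) and a fold enrichment of 10.4. All 3 lay inside their gene. These heights are in the range of the PLXNA4 peak, and their intervals overlap its interval.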

How the data were processed

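RUNX1 ChIPseq was compared with input DNA in MCF10A cells, 1 library each, assigned by the antibody in their labels. Per the labels, reads were aligned with Bowtie2 to hg38. Per the file headers, the authors called peaks with MACS 2.1.2 at a q limit of 0.05, with tags of 54 bp extended to 74 bp, 1 tag kept per position and strand, and backgrounds over 1 and 10 kb. Of 89501295 ChIP tags 80338845 were kept, and of 94686274 input tags 87410774. The pileup the authors deposited is a signal in extended tags, unscaled and at most 148. The fold enrichment deposited is a ratio, pileup plus 1 over local background plus 1. The deposited p and q are −log10 values.

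Summits were assigned to genes of the RefSeq table (GRCh38.p14) with Python 3.11.15, pandas 2.3.3 and scipy 1.17.1, after a check of the assignment on simulated summits. The input level was computed as (pileup + 1)/fold − 1, and its genome background from the kept ChIP tags. Intervals are exact 95% Poisson intervals. Strands and starts came from the RefSeq promoter table, in which 2590 of 2590 overlapping windows on opposite strands matched as reverse complements. All 31 members are named, those with a peak within 5 kb with their values, and of the other lists the 3 genes with the tallest peaks. The members and lists were chosen with earlier results of these data known. The planned motif search at summits needs a genome sequence and was not run.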

Additional observations from a re-analysis of the deposited data

How the results depend on the processing

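Of 32 alternatives over 4 counts, 22 left the count within 1.5 times. A fold enrichment of at least 5 lowered the members with a peak from 15 to 9, their peaks from 39 to 15 and the other guidance genes with a peak from 20 to 13, since weaker peaks are dropped, and all protein-coding genes with a peak fell to 15.4%. With 50 kb on either side the members rose to 23, their peaks to 65 and the partners from 14 to 22, since the windows are wider. A pileup of at least 20 tags, chosen after seeing the data, left 7 members, 11 of their peaks, 8 partners and 5 other guidance genes, and 12.1% of all protein-coding genes. Gene bodies alone dropped SEMA7A, and an input level of at most 1.5 times the genome background dropped SEMA3E. No paired analysis was possible because only a single ChIP and a single input library were compared. Other motifs and windows planned for the bases at summits were not run, since no genome sequence was used. The 11 to 39 tags per peak limit how far heights can be told apart.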

Other observations

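The other families of guidance cues and receptors, 41 genes in all, had a peak in 20, against 17 summed from the genes nearest to them in length, with 46 peaks. Eph receptors had a peak in 7 of 14 genes, ephrins in 4 of 8, SLIT genes in 3 of 3, netrins in 3 of 6 and netrin receptors in 3 of 6. Their median lengths were 104, 10.9, 369, 108 and 320 kb in that order. Of all protein-coding genes, 14.3% under 30 kb, 46.5% from 100 to 250 kb and 68.0% of 250 kb or longer had a peak. Of the 200 genes nearest in length, 107, 141 and 46 had as many peaks as SLIT1, SLIT2 and SLIT3. The 4 ROBO genes, receptors of SLIT with a median length of 593 kb, had none. The tallest peaks were at EPHA2, a receptor of ephrin-A ligands that is common in epithelia, with 39 tags (27.7 to 53.3) and a fold enrichment of 10.0, at EPHA4 with 36 tags (25.2 to 49.8) and 11.6-fold, and at SLIT3 with 28 tags (18.6 to 40.5) and 6.64-fold. EPHA2 had 6 peaks in or beside 31.7 kb, and none of the 200 genes nearest in length had as many. It was singled out for its count after the values were seen, as was the partner MICAL2, whose 7 peaks in 252 kb were matched by 4 of 200.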
